A study of Mus musculus with 32 samples.

Results

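The genes described here encode the subunits of the proteasome, its activators and inhibitor, and the chaperones that assemble it. They were chosen by name: every mouse gene whose symbol starts with Psma, Psmb, Psmc, Psmd, Psme, Psmf or Psmg. Psmb8, Psmb9 and Psmb10, the inducible catalytic subunits, were left out of the list and are used only for comparison. The rule gave 48 of the 25067 genes in the table, and their choice used no measured value. Each gene was then represented by its transcript of highest mean count, and 15 members had more than 1 transcript. Of these, 46 had a mean RPKM (reads scaled by library size and transcript length) over 1 in at least 1 group and were tested.

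The proteasome degrades proteins that carry ubiquitin chains. Its core particle is a barrel of stacked rings, in which the alpha subunits (Psma genes) form the outer gates and the beta subunits (Psmb genes) form the inner chamber, with the proteolytic sites on Psmb5, Psmb6 and Psmb7. A regulatory particle made of an ATPase base (Psmc genes and some Psmd genes) and a lid (other Psmd genes) binds, unfolds and deubiquitinates substrates, and alternative caps such as PA28 (Psme1 and Psme2) open the core without ATP. In macrophages exposed to interferon, Psmb8, Psmb9 and Psmb10 take the places of the constitutive catalytic subunits and form the immunoproteasome, which together with PA28 is known for producing peptides for MHC class I.

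RNA-seq was performed on bone marrow-derived macrophages (BMDMs) of C57Bl6/J mice, which were males aged 6 to 12 weeks, after 7 days of differentiation with medium conditioned by L929 cells. BMDM-WT came from wild-type littermates. BMDM-Nur77-KO came from mice whose loxP-flanked Nr4a1 gene, encoding the nuclear receptor Nur77, had been deleted in the whole body by CMV-Cre, after which Cre was bred out, and the labels give this genotype as cre. LPS was given at 100 ng/ml, and RNA was taken before it (0 h) and 1, 5 or 18 h later, with 4 libraries in each of the 8 groups. The labels and methods do not say from how many animals the 4 replicates came, so the p-values below measure the spread between these libraries, which may be partly technical.

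The 32 libraries held 8742362 to 15780926 counts on the kept transcripts. Nr4a1 was at 15.5 to 25.5 CPM (counts scaled by TMM to a library size of 1e6) in BMDM-WT and 4.42 to 6.92 CPM in BMDM-Nur77-KO at 0 h. After 1 h of LPS it was at 358 to 483 CPM against 146 to 244 CPM, so it was lower in the knockout (log2 fold change -1.91 and -1.20, adjusted p = 1.54e-08 and 1.96e-06) but transcripts of the gene remained. All 8 macrophage markers were high, the lowest value being 104 CPM for Mertk. Their sum in BMDM-WT was 16581 to 18251 CPM at 5 h and 14118 to 14615 CPM at 18 h. The knockout libraries all lay below these ranges, at 13116 to 16260 CPM and 11083 to 12693 CPM. At 0 and 1 h the sums of both genotypes overlapped. Ly6g, Elane, Hba-a1, Lum and Cd3e, which define other cell types, stayed under 1 CPM in every library. Other listed markers did not, among them S100a8 (up to 19.6 CPM), S100a9 (15.9), Ltf (7.22), Kit (5.34), Cd79b (3.90), Pax5 (2.15), the fibroblast marker Dcn (1.69) and Camp (1.12). The sum of the neutrophil markers was 12.0 to 21.2 CPM in BMDM-WT and 19.1 to 26.3 CPM in BMDM-Nur77-KO at 0 h. At 1 h it was 21.5 to 28.1 CPM against 30.5 to 37.0 CPM. The B cell, T and NK cell, fibroblast, erythroid and mast cell sums stayed under 6 CPM. The 6 dendritic cell markers summed to 1.36 to 1.67 CPM in BMDM-WT at 0 h, 14.7 to 20.1 CPM at 5 h and 6.69 to 8.30 CPM at 18 h, against 19.0 to 24.1 CPM in BMDM-Nur77-KO at 18 h, mostly from Xcr1 and Clec9a. Of the others, Ccr7 reached 5.51 CPM, Zbtb46 1.12 CPM, Siglech 0.418 CPM and Flt3 0.299 CPM. The part of all these marker differences in the results below was not tested. In bulk RNA, fewer cells of a type and less RNA per cell cannot be told apart.

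Before the results, 3 libraries need to be named. In BMDM-Nur77-KO at 5 h, replicate 1 had log2 CPM values of the members that deviated from the group median with an SD of 0.57, and in replicate 4 of BMDM-Nur77-KO at 18 h with an SD of 0.37. Replicate 2 of BMDM-Nur77-KO at 5 h had an SD of 0.14, within the 0.05 to 0.16 of the other 29 libraries, but went the same way as replicate 1 for Psmb5, Psmb3 and Psmb4. In the 2 libraries with the wide spread most members with GC-rich transcripts were low and most with GC-poor transcripts high, Psme1 being an exception. Over all tested genes, the correlation of this deviation with GC content was -0.63 in replicate 1 and -0.33 in replicate 2 at 5 h and -0.63 in replicate 4 at 18 h. A library of BMDM-WT, replicate 3 at 18 h, had the same slant (-0.66) with a smaller spread, and the opposite one was seen at 0 h in replicate 4 of BMDM-Nur77-KO (0.60). Slants were not confined to these libraries, as replicate 4 of BMDM-WT at 1 h was at -0.47 and replicate 1 of BMDM-Nur77-KO at 0 h at -0.37. In BMDM-Nur77-KO at 5 h, the kept replicates 3 and 4 were at 0.44 and 0.49. Their SD over all tested genes (0.20 and 0.22) exceeded that of replicate 2 (0.16), so leaving out replicate 2 is less clear. The counts of members and the genotype comparisons are therefore given with all libraries and again without the 3, and the genotype comparisons at 5 and 18 h also without these 3 and replicate 3 of BMDM-WT at 18 h. Both choices were made after seeing the data, and without the 3 libraries BMDM-Nur77-KO at 5 h kept replicates 3 and 4 alone. A correction of each library for transcript GC content, also chosen afterwards, is given for some calls, and the counts that it moved most are listed at the end. A call given without it may not have held under it, and other members were called only with it.

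**Figure D1:**
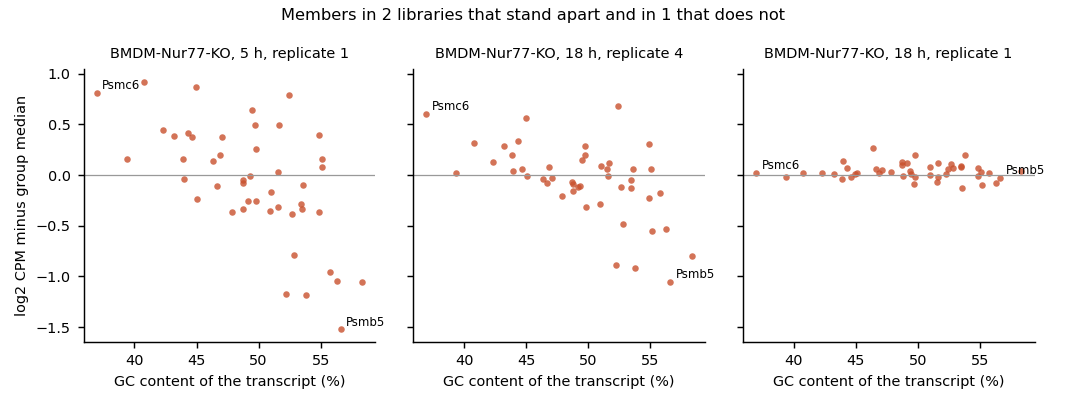
Deviation of each of the 46 tested members from the median of its group (y axis, log2 CPM) against the GC content of its transcript (x axis, %), in 3 libraries of BMDM-Nur77-KO. Each point is a gene. In replicate 1 at 5 h and replicate 4 at 18 h the points fall from left to right (SD 0.57 and 0.37), and in replicate 1 at 18 h they lie near 0.

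Promoters of 40 of the 48 members were found in RefSeq (GRCm38.p6), as 44 windows of 300 bases that run from 250 bases before to 50 bases after the transcription start. Each was searched on both strands for 7 motifs. The 3 PA28 genes are shown because they had the largest changes of the members at 18 h of LPS, and Psmb5 because it is the constitutive catalytic subunit that was called higher at 18 h and not at 5 h in BMDM-WT. Psme1 and Psme2 lie close together on chromosome 14 (chr14:55578494-55581527 on the plus strand and chr14:55587440-55591101 on the minus strand). Psme2b lies on another chromosome (chr11:48945345-48946410, minus strand). The capitals mark a match to the interferon-stimulated response element in Psme1 (GAAA, any 2 bases, GAAA, here read on the opposite strand) and a match to TGACNNNGC, the antioxidant response element, in Psmb5. Psme2 has another annotated start, whose window is not shown.
Psme1, chr14:55578244-55578543, plus strand: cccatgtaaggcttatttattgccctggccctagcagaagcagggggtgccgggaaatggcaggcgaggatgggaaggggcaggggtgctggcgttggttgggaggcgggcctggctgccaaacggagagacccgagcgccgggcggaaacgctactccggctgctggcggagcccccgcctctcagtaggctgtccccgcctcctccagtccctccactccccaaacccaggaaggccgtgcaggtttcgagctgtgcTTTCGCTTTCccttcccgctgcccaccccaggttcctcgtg
Psme2, chr14:55591052-55591351, minus strand: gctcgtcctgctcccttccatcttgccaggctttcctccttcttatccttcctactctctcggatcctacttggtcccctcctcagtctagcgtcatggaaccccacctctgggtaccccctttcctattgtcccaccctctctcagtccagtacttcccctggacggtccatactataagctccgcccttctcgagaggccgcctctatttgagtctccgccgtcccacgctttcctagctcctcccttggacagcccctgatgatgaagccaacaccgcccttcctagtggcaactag
Psme2b, chr11:48946361-48946660, minus strand: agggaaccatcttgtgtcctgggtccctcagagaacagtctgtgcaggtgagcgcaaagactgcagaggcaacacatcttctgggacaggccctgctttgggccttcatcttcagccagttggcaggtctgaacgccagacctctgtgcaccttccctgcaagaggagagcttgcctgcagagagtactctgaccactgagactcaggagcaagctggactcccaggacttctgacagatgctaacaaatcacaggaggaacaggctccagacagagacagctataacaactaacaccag
Psmb5, chr14:54617946-54618245, minus strand: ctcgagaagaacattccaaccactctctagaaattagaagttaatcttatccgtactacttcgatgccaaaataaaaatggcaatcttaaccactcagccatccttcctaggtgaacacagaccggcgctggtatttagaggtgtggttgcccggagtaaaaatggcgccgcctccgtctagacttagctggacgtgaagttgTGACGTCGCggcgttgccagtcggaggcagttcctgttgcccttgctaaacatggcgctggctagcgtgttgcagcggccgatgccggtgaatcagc

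The match in Psme1 begins at position 10 after the start site. The interferon-stimulated response element was present in 5 of the 44 windows (11.4%, of Psmb3, Psmd4, Psmd9, Psme1 and Psmg4) and in 3.44% of all 32851 promoters. TGACNNNGC was present in 6 windows (13.6%, of Psmb5, Psmb6, Psmc6, Psmd12, Psmd9 and Psme4) and in 12.4% of all promoters. TTCNNNGAA, the gamma-activated site, was in 2 windows (Psmd2 and Psmg1, 8.30% of all promoters), and TGANTCA, the AP-1 site, which can share bases with TGACNNNGC, was in 2 (Psmb5 and Psmd9, 7.81%). The NF-kB site (GGG, any 2 bases, TTTCC) was in 1 window (Psme3ip1, 1.63%) and CCAAT in 15 (37.4%). AAAGGTCA, the NBRE that Nur77 binds, was in 0 of the 44 windows and in 1.51% of all promoters. These are matches of letters in short windows and say nothing of binding.

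On the TMM scale the summed proteasome transcripts were higher from 5 h of LPS on, and per library total only at 18 h. The summed level of the 48 members in BMDM-WT was 3511 ± 120 CPM at 0 h, 3491 ± 88.3 CPM at 1 h, 5089 ± 87.6 CPM at 5 h and 5637 ± 40.2 CPM at 18 h (mean ± SD, n = 4). The libraries at 5 and 18 h all lay above those at 0 and 1 h. In BMDM-Nur77-KO the sum was 3511 ± 70.9, 3614 ± 73.5, 4829 ± 149 and 5985 ± 143 CPM. Per 1e6 counts of the library total, without TMM, the sum at 0, 5 and 18 h was 4338 ± 58.9, 4036 ± 100 and 5402 ± 188 in BMDM-WT. In BMDM-Nur77-KO it was 4288 ± 117, 3792 ± 145 and 5309 ± 213. On that scale the libraries at 5 h all lay below those at 0 h in both genotypes, and those at 18 h all above.

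At 1 h in BMDM-WT, 2 members were higher and 2 lower (quasi-likelihood test of edgeR, p-values adjusted after Benjamini and Hochberg for the 11186 genes tested, threshold 0.05), where 10.4% of all tested genes were higher and 9.81% lower. The higher ones were Psmd14 (log2 fold change 0.27 ± 0.09, estimate ± SE) and Psma6 (0.20 ± 0.06), and the lower ones Psmg3 (-0.65 ± 0.21) and Psme2b (-0.32 ± 0.08). The calls of Psmd14 and Psmg3 each ended when any of 4 single libraries was left out, and with the GC correction Psmd14 and Psma6 were not called. In BMDM-Nur77-KO 0 members were higher and 0 lower by edgeR's test at 1 h, against 7.12% and 5.08% of all genes. At an unadjusted p under 0.05 there were 3 higher and 1 lower, and DESeq2 called 0 and 1. Without the 3 libraries 3 were higher and 1 lower, where 9.92% and 7.67% of all genes were.

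At 5 h in BMDM-WT, 21 members were higher and 5 lower, where 30.8% of all tested genes were higher and 39.1% lower. The median log2 fold change was 0.21 over the members and -0.13 over all tested genes. At 18 h, 32 members were higher and 7 lower, where 32.9% and 33.6% of all genes were, and the median was 0.46 against 0.00. Between 5 and 18 h, 17 members were higher at 18 h and 6 lower (35.6% and 33.9% of all genes). The 3 libraries of BMDM-Nur77-KO enter here through the shared estimate of the spread. Without them 29 members were higher and 6 lower at 5 h (33.7% and 42.9% of all genes). At 18 h the counts were 35 and 8 (36.9% and 37.1%), and from 5 to 18 h 23 and 9 (38.8% and 37.1%). The scaling mattered for these counts. When libraries were scaled by their totals alone in place of TMM, the median of all genes became -0.77 at 5 h and -0.36 at 18 h and that of the members -0.43 and 0.09. The counts were then 8 higher and 28 lower at 5 h, 16 and 10 at 18 h, and 34 and 2 between 5 and 18 h. The levels and changes below are on the TMM scale. On it, the libraries at 0 and 5 h did not overlap for 33 of the 46 tested members and 70.2% of all tested genes. For 0 and 18 h this held for 38 members and 64.3% of genes, and for 5 and 18 h for 27 and 66.9%.

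**Figure D2:**
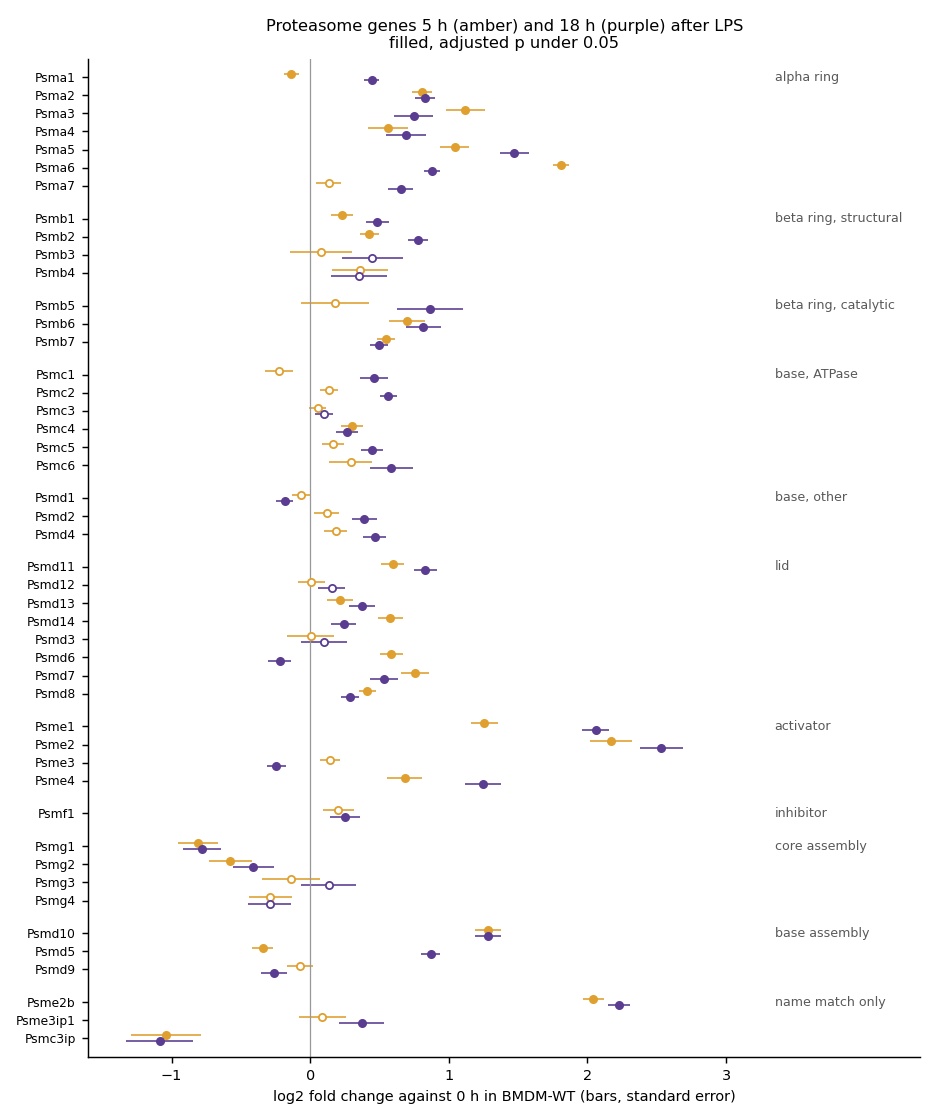
Log2 fold change against 0 h in BMDM-WT (x axis) of the tested members (y axis), grouped by role, at 5 h (amber) and 18 h (purple) of LPS. Points are estimates of edgeR's quasi-likelihood fit, bars are standard errors and filled points have an adjusted p under 0.05. Psme1 and Psme2 reach 2.06 and 2.53 at 18 h, and Psmg1 lies at -0.81 at 5 h.

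At 18 h the largest changes were those of the PA28 genes. Psme1, the alpha subunit of PA28, was at 94.6, 104, 113 and 103 CPM in the 4 libraries of BMDM-WT at 0 h, at 249, 249, 246 and 247 CPM at 5 h and at 427, 442, 429 and 432 CPM at 18 h. These 3 time points did not overlap, and the libraries at 1 h (94.0 to 98.2 CPM) overlapped with those at 0 h. The log2 fold change was 1.26 ± 0.10 at 5 h and 2.06 ± 0.10 at 18 h (adjusted p = 5.17e-13 and 5.52e-18).

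Psme2, the beta subunit, was at 73.9, 64.8, 74.3 and 82.6 CPM at 0 h, at 320, 342, 341 and 326 CPM at 5 h and at 430, 445, 397 and 438 CPM at 18 h. It made most of its rise by 5 h (log2 fold change 2.17 ± 0.15, adjusted p = 1.15e-13) and added 0.36 ± 0.15 from 5 to 18 h (adjusted p = 0.0303), where Psme1 added 0.80 ± 0.09 (adjusted p = 8.39e-09). The difference between both genes was not tested. Psme2b was at 33.2 to 38.3 CPM at 0 h, 140 to 153 CPM at 5 h and 161 to 177 CPM at 18 h (log2 fold change 2.04 ± 0.08 and 2.23 ± 0.08, adjusted p = 2.19e-20 and 3.92e-21). Its transcript is a near copy, identical to that of Psme2 at 789 of 794 aligned bases (99.4%), so how the counting divided reads between both genes is uncertain. Exons of Psme2b also overlap those of 9930111J21Rik1 on the same strand, and exons of Psme1 overlap those of Emc9 on the other strand. Such overlaps were found for 13 members. Among them is Psmb7 with Nek6 on the other strand (32833 and 39506 counts over all libraries). Psmb5 overlaps Mir686 on the same strand (16770 and 2785 counts), so levels of Psmb5 and Psmb7 given below may be affected. The libraries were strand-specific, but whether the counting used strand is not given in the sources used here.

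The other caps behaved differently. Psme4 (PA200), which forms an alternative cap, was at 101, 115, 96.6 and 90.5 CPM at 0 h, 165, 145, 178 and 161 CPM at 5 h and 209, 223, 319 and 207 CPM at 18 h, and its log2 fold change was 0.68 ± 0.13 and then 1.25 ± 0.13 (adjusted p = 2.23e-05 and 5.96e-10). The 3 times did not overlap, and replicate 3 stood highest at 18 h. Psme3, the nuclear PA28 gamma, was at 104 to 107 CPM at 0 h, 114 to 119 CPM at 5 h and 86.2 to 93.7 CPM at 18 h. Its libraries at 18 h all lay below those at 0 h (-0.24 ± 0.07, adjusted p = 0.00321). Psmf1, the inhibitor PI31, was at 21.0 to 28.2 CPM at 0 h and 26.8 to 32.0 CPM at 18 h (0.25 ± 0.11, adjusted p = 0.0454), and leaving out any of 5 single libraries ended that call.

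Psmb8, Psmb9 and Psmb10 rose in the same samples as PA28. Their log2 fold changes in BMDM-WT were 1.75 ± 0.16, 2.25 ± 0.13 and 2.03 ± 0.22 at 5 h and 2.49 ± 0.16, 2.65 ± 0.13 and 2.22 ± 0.22 at 18 h (adjusted p = 1.37e-14, 1.58e-17 and 2.81e-10 at 18 h). Of the subunits that they replace, Psmb5, with the chymotrypsin-like site, was at 36.3, 36.7, 41.7 and 45.6 CPM at 0 h, at 44.4, 47.7, 48.1 and 41.0 CPM at 5 h and at 79.0, 72.0, 61.1 and 79.7 CPM at 18 h. The libraries at 0 and 5 h overlapped (0.18 ± 0.24, adjusted p = 0.527, and 0.18 ± 0.08, adjusted p = 0.0417, with the 3 libraries and replicate 3 of BMDM-WT at 18 h left out), whereas all those at 18 h were higher (0.86 ± 0.24, adjusted p = 0.00231). Psmb6, with the caspase-like site, was at 100 to 112 CPM at 0 h, 165 to 182 CPM at 5 h and 169 to 199 CPM at 18 h (0.70 ± 0.13 and 0.82 ± 0.13, adjusted p = 1.93e-05 and 1.91e-06). Psmb7, with the trypsin-like site, was at 68.5 to 78.2, 101 to 114 and 98.9 to 105 CPM (0.55 ± 0.06 and 0.50 ± 0.06, adjusted p = 7.34e-09 and 5.49e-08). For both, 5 and 18 h lay above 0 h without overlap, although scaled by library totals alone Psmb7 at 5 h was at -0.09.

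Compared per length, in RPKM, the inducible subunits gained on the constitutive ones. The ratio of Psmb8 to Psmb5 in BMDM-WT was 1.06 ± 0.05 before LPS, 1.13 ± 0.13 after 1 h, 3.17 ± 0.19 after 5 h and 3.29 ± 0.17 after 18 h (mean ± SD, n = 4). That of Psmb10 to Psmb7 was 0.45 ± 0.06, 0.40 ± 0.07, 1.26 ± 0.06 and 1.49 ± 0.13, and that of Psmb9 to Psmb6 was 0.11 ± 0.01, 0.09 ± 0.01, 0.31 ± 0.01 and 0.37 ± 0.04. In each pair the lowest ratio at 5 and 18 h exceeded the highest at 0 and 1 h. Psmb9 stayed below Psmb6 in every library of BMDM-WT, whereas Psmb10 was above Psmb7 in all libraries at 5 and 18 h.

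**Figure D3:**
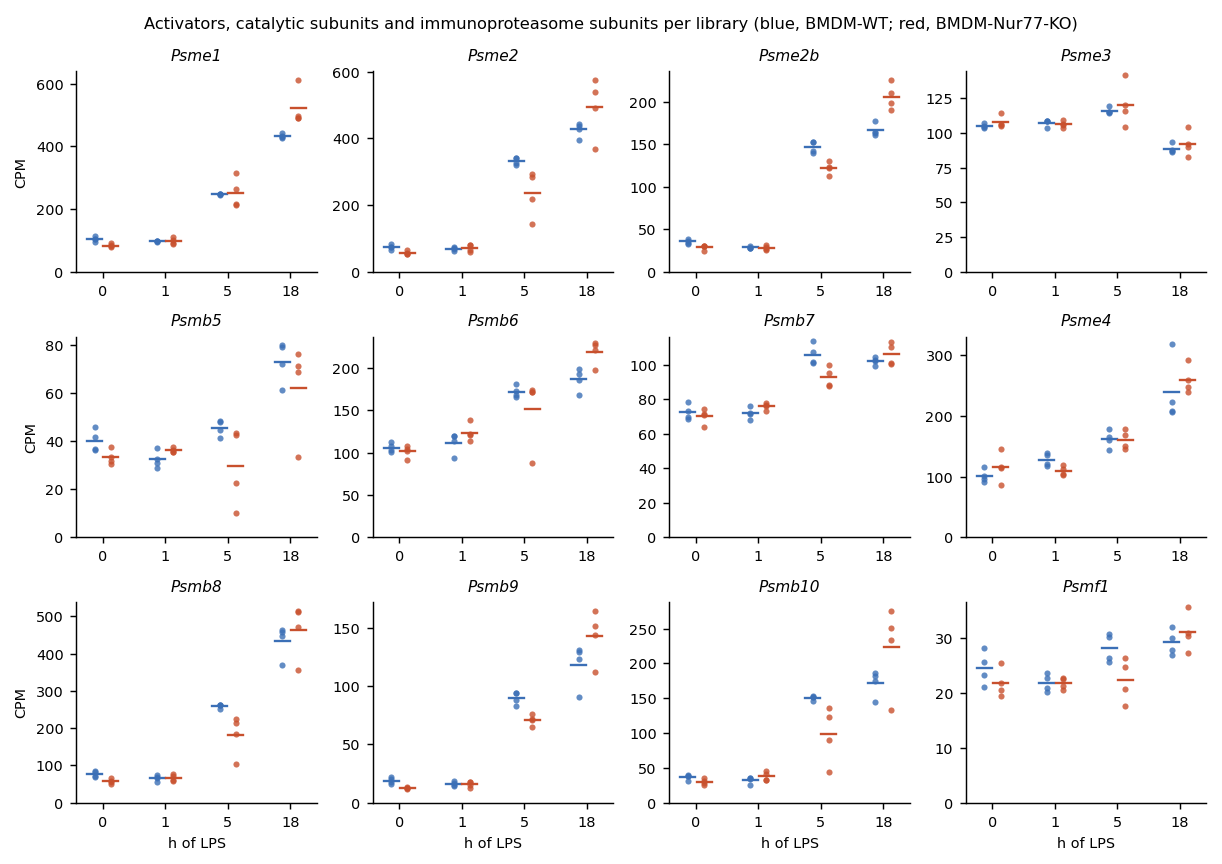
CPM (y axis, linear) of the PA28 genes, the other caps, the inhibitor Psmf1, the catalytic subunits Psmb5, Psmb6 and Psmb7 and their inducible counterparts Psmb8, Psmb9 and Psmb10 by hours of LPS (x axis). Each point is a library (blue, BMDM-WT; red, BMDM-Nur77-KO) and each line the mean of 4. Psme1 in BMDM-WT goes from 94.6 to 113 CPM at 0 h to 427 to 442 CPM at 18 h, and the red points of Psmb5 and Psme2 at 5 and 18 h scatter more than the blue ones.

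The summed core particle had a larger increase than the summed regulatory particle on the TMM scale. The 14 constitutive core subunits in BMDM-WT summed to 1076 ± 41.2 CPM at 0 h, 1739 ± 39.2 CPM at 5 h and 1776 ± 52.8 CPM at 18 h (mean ± SD, n = 4). The 17 subunits of base and lid summed to 1843 ± 65.7, 2151 ± 43.1 and 2272 ± 32.9 CPM at the same times. Both sums at 5 and 18 h lay above their libraries at 0 h without overlap, and the difference between the particles was not tested. Per 1e6 counts of the library total, the core particle was at 1329 ± 26.0, 1380 ± 49.5 and 1703 ± 95.7, where the libraries at 5 h overlapped with those at 0 h and those at 18 h lay above. The regulatory particle was at 2277 ± 34.0, 1706 ± 41.3 and 2178 ± 90.2 on that scale, so that its libraries at 5 h lay below those at 0 h and those at 18 h overlapped with them.

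Of the 7 alpha subunits, 5 were higher and Psma1 lower at 5 h, and all 7 were higher at 18 h in BMDM-WT (median log2 fold change 0.81 and 0.75). Psma6 was at 96.9, 92.9, 95.6 and 98.7 CPM at 0 h, at 360, 337, 330 and 319 CPM at 5 h and at 182, 175, 176 and 173 CPM at 18 h. The 3 times did not overlap, and the level at 5 h was the highest. Outside the PA28 genes it had the largest estimate of the members at 5 h (log2 fold change 1.81 ± 0.06, adjusted p = 2.66e-22), and it was lower again at 18 h than at 5 h (-0.93 ± 0.06, adjusted p = 4.7e-15).

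Psma5, in the same ring, kept rising, from 43.7 to 63.3 CPM at 0 h to 116 to 124 CPM at 5 h and 153 to 170 CPM at 18 h (log2 fold change 1.04 ± 0.10 and 1.47 ± 0.10, adjusted p = 2.31e-10 and 1.05e-13). Psma3 resembled Psma6 with a smaller peak (1.12 at 5 h and 0.75 at 18 h). Psma2 had nearly the same estimate at both times (0.81 and 0.83), as had Psma4 (0.56 and 0.69), and Psma1 and Psma7 were called higher at 18 h and not at 5 h (0.44 and 0.65 at 18 h). Without the 3 libraries Psma7 passed the threshold at 5 h too. Of the 4 structural beta subunits, Psmb1 (0.23 and 0.48) and Psmb2 (0.43 and 0.78) were higher at both times. Psmb3 (0.08 ± 0.22 and 0.45 ± 0.22) and Psmb4 (0.36 ± 0.20 and 0.35 ± 0.20) did not pass with all libraries. Without the 3 libraries Psmb4 passed at both times and Psmb3 at 18 h.

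Levels per length also differed among subunits that the assembled particle holds in equal number. Mean RPKM over the 14 core subunits in BMDM-WT at 0 h ran from 24.0 (Psma3) to 133 (Psmb6), 5.54 times as high. At 5 h it ran from 50.4 (Psmb5) to 323 (Psma6), 6.40 times, and at 18 h from 40.3 (Psma3) to 234 (Psmb6), 5.81 times. The SD of the log2 RPKM over the 14 genes was 0.65, 0.78 and 0.66 at these times, highest at 5 h, when Psma6 peaked. These comparisons between genes depend on the transcript length taken for each, such as 2846 bases for Psma3 and 798 for Psmb6. Other lengths were not tried.

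In the base, 1 of the 6 ATPases was higher at 5 h (Psmc4, 0.30) and 5 were at 18 h in BMDM-WT, from 0.27 (Psmc4) to 0.59 (Psmc6), Psmc3 (0.10 ± 0.06) being the exception. Without the 3 libraries Psmc1, Psmc2, Psmc5 and Psmc6 passed the threshold at 5 h, each as higher or as lower, and their directions, which may differ, are not given here. Of the other base subunits, Psmd2 (Rpn1) and the ubiquitin receptor Psmd4 (Rpn10) were higher at 18 h (0.39 and 0.46) and Psmd1 (Rpn2) was lower (-0.18). None of these 3 genes passed at 5 h by edgeR's test with all libraries, and Psmd4 did without the 3 libraries. Of the 8 lid subunits, 6 were higher at 5 h, from 0.21 (Psmd13) to 0.75 (Psmd7), and 5 at 18 h, while Psmd3 and Psmd12 passed at neither time. Without the 3 libraries Psmd12 passed at 18 h.

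Psmd6, a lid subunit, changed direction. It was at 71.9, 62.9, 70.4 and 72.4 CPM at 0 h, at 105, 104, 104 and 103 CPM at 5 h and at 58.4, 56.2, 64.1 and 59.3 CPM at 18 h in BMDM-WT. The libraries at 5 h stood above all others, and those at 18 h overlapped with 0 h only through replicate 3 at 18 h and replicate 2 at 0 h (log2 fold change 0.59 ± 0.08 and -0.22 ± 0.08, adjusted p = 1.77e-07 and 0.0183). Psmd14, the deubiquitinase of the lid, was at 74.9 to 83.4, 116 to 120 and 88.0 to 106 CPM (0.58 ± 0.09 and 0.24 ± 0.09, adjusted p = 1.44e-06 and 0.0196). Its call at 18 h ended without replicate 3 of BMDM-WT at 18 h (0.18, adjusted p = 0.0986) or replicate 1 at 0 h (0.22, adjusted p = 0.0559). On library totals alone, Psmd14 was at -0.06 at 5 h and -0.13 at 18 h.

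The assembly chaperones moved apart. Psmd10 (gankyrin), a chaperone of the base, was at 21.9, 21.3, 23.4 and 24.8 CPM at 0 h, 55.7, 56.1, 54.5 and 56.3 CPM at 5 h and 52.1, 54.8, 55.9 and 59.3 CPM at 18 h in BMDM-WT. It was higher at both times, which overlapped with each other (1.28 ± 0.09 and 1.28 ± 0.09, adjusted p = 1.48e-13 and 1.61e-13).

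Psmd5, another base chaperone, was at 30.0, 28.4, 31.1 and 32.1 CPM at 0 h, 24.1, 23.0, 23.8 and 24.8 CPM at 5 h and 53.7, 55.3, 57.2 and 55.7 CPM at 18 h. Its libraries did not overlap between any of these times. It was lower at 5 h (-0.34 ± 0.07, adjusted p = 0.000153) and above the start at 18 h (0.87 ± 0.07, adjusted p = 4.16e-12), with the largest estimate of the members between 5 and 18 h (1.21 ± 0.07, adjusted p = 4.89e-15). Psmd9, the third base chaperone, was lower at 18 h (-0.26 ± 0.09, adjusted p = 0.0158), a call that ended without replicate 3 or replicate 4 of BMDM-WT at 0 h.

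The chaperones of the core particle had low levels, and none was higher at 5 or 18 h in BMDM-WT by edgeR's test. Psmg1 was at 7.57, 7.65, 9.00 and 8.23 CPM at 0 h, 5.52, 4.31, 4.39 and 4.26 CPM at 5 h and 4.37, 5.86, 4.11 and 4.54 CPM at 18 h, all below the start (-0.81 ± 0.14 and -0.78 ± 0.14, adjusted p = 9.12e-06 and 9.52e-06). Its partner Psmg2 was lower too (-0.58 ± 0.15 and -0.41 ± 0.15, adjusted p = 0.00153 and 0.0158). Psmg3 (-0.14 ± 0.21 and 0.13 ± 0.20) and Psmg4 (-0.29 ± 0.16 and -0.29 ± 0.15) did not pass with all libraries, and Psmg4 passed at 18 h without the 3 libraries. The 4 summed to 28.8 to 32.0 CPM at 0 h and 22.4 to 25.6 CPM at 18 h, a decrease without overlap, while the sum of the core subunits that they assemble was higher.

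**Figure D4:**
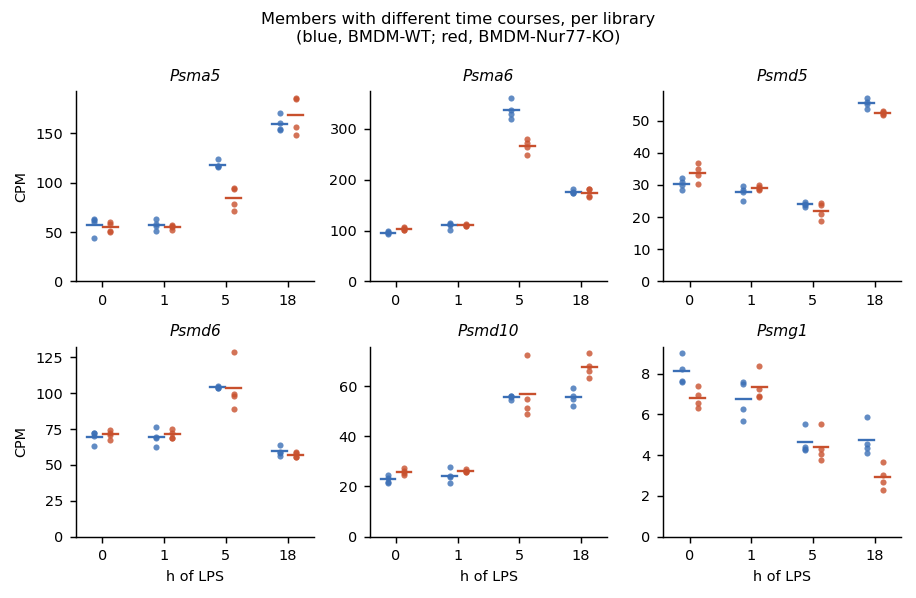
CPM (y axis, linear) of 6 members by hours of LPS (x axis). Each point is a library (blue, BMDM-WT; red, BMDM-Nur77-KO) and each line the mean of 4. In BMDM-WT, Psma5 keeps rising, Psma6 and Psmd6 peak at 5 h (319 to 360 and 103 to 105 CPM), Psmd5 dips at 5 h before it rises, Psmd10 holds its level from 5 to 18 h and Psmg1 falls.

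Of the remaining members, Psmc3ip, named for its binding to an ATPase of the base but a partner of recombinases in meiosis, was at 2.93 to 4.39 CPM at 0 h and 1.54 to 1.99 CPM at 18 h in BMDM-WT (-1.09 ± 0.24, adjusted p = 0.000227), and its exons overlap those of the more abundant Mlx. Psme3ip1, which binds PA28 gamma, was higher at 18 h (0.37 ± 0.17, adjusted p = 0.0492). Psma8, the alpha subunit of the testis, had 2 to 35 counts per library, and Psmb11, the catalytic subunit of the thymus cortex, had 0 or 1. Neither was tested.

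Around the particle, a list of 39 genes of ubiquitin supply, shuttling, unfolding and proteasome regulation was examined, of which 38 were tested. At 5 h in BMDM-WT, 18 were higher and 8 lower, and at 18 h 16 were higher and 7 lower (median log2 fold change 0.21 at both times). Of all tested genes, 30.8% were higher and 39.1% lower at 5 h and 32.9% and 33.6% at 18 h, with medians of -0.13 and 0.00. Pomp, the maturation factor of the core particle, was higher (0.38 ± 0.08 and 0.63 ± 0.08, adjusted p = 9.56e-05 and 3.38e-08), although on library totals alone it was at -0.26 at 5 h. Nfe2l1, the transcription factor known for inducing proteasome subunits when the proteasome is inhibited, was at 167 to 187 CPM at 0 h, 270 to 320 CPM at 5 h and 436 to 460 CPM at 18 h. These did not overlap (0.74 ± 0.06 and 1.33 ± 0.06, adjusted p = 1.05e-11 and 9.65e-18). The ubiquitin ligase Ubr4 was higher (1.86 ± 0.17 and 1.36 ± 0.17, adjusted p = 5.13e-11 and 2.81e-08), and the stress-induced Zfand2a was lower at 5 h (-1.72 ± 0.10, adjusted p = 1.38e-15). Ubd, a ubiquitin-like modifier that directs proteins to the proteasome, had 0 to 1 count per library at 0 h in BMDM-WT and 3 to 13 counts at 18 h, so no fold is given.

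In BMDM-Nur77-KO, 24 members were higher and 6 lower at 5 h, where 33.1% and 38.2% of all genes were (median 0.20 over the members and -0.09 over all genes). At 18 h, 30 were higher and 6 lower (34.7% and 34.6%, median 0.48 and 0.00). Without the 3 libraries these counts were 24 and 6 at 5 h (31.5% and 36.4% of all genes) and 35 and 6 at 18 h (37.3% and 37.3%). On library totals alone they were 7 and 31 at 5 h and 16 and 12 at 18 h. From 5 to 18 h, 23 members were higher and 9 lower (35.2% and 34.1% of all genes). The counts were 24 and 7 without the 3 libraries (33.9% and 33.7%) and 30 and 5 on library totals alone.

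Psme1 was at 78.4, 81.0, 84.6 and 90.6 CPM at 0 h, 314, 264, 213 and 216 CPM at 5 h and 490, 492, 496 and 612 CPM at 18 h in BMDM-Nur77-KO (1.59 ± 0.10 and 2.64 ± 0.10, adjusted p = 2.27e-15 and 1.44e-20). Psme2 was at 54.7, 53.9, 56.2 and 64.5 CPM at 0 h, 144, 218, 284 and 294 CPM at 5 h and 540, 575, 490 and 369 CPM at 18 h (2.04 ± 0.15 and 3.11 ± 0.16, adjusted p = 5.64e-13 and 4.13e-17). Replicate 1 at 5 h and replicate 4 at 18 h gave the highest values for Psme1 and the lowest for Psme2. Psme2b stayed within 113 to 130 CPM at 5 h and 190 to 226 CPM at 18 h (2.85 ± 0.08 at 18 h, adjusted p = 1.17e-23). With the 3 libraries left out the log2 fold changes at 5 and 18 h were 1.36 ± 0.07 and 2.56 ± 0.06 for Psme1, 2.34 ± 0.10 and 3.22 ± 0.09 for Psme2 and 2.15 ± 0.08 and 2.89 ± 0.07 for Psme2b, and each was called.

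Psmb5 was the member farthest below its group median in replicate 1 at 5 h. It was at 30.4 to 37.6 CPM at 0 h, at 10.1, 22.3, 42.5 and 43.2 CPM at 5 h and at 68.5, 76.1, 70.9 and 33.1 CPM at 18 h in BMDM-Nur77-KO. The libraries overlapped between 0 h and both later times (-0.16 ± 0.25 and 0.91 ± 0.24, adjusted p = 0.567 and 0.00153). Without the 3 libraries, only replicates 3 and 4 were left at 5 h (42.5 and 43.2 CPM). These and all those left at 18 h lay above 0 h, and the estimate at 5 h turned and passed (0.37 ± 0.11 and 1.12 ± 0.09, adjusted p = 0.00357 and 4.28e-12). Psmd5 (-0.62 ± 0.07 and 0.63 ± 0.07), Psmd6 (0.54 ± 0.08 and -0.32 ± 0.08), Psmd10 (1.13 ± 0.09 and 1.39 ± 0.09) and Psma6 (1.36 ± 0.06 and 0.75 ± 0.06) each passed at both times, and did so without the 3 libraries (-0.49 and 0.64, 0.47 and -0.31, 0.95 and 1.35, and 1.41 and 0.78).

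The direct comparison of genotypes uses the same libraries as the comparisons above. At 0 h, 3 members were lower in BMDM-Nur77-KO and 0 higher, where 6.65% of all genes were lower and 5.88% higher (at an unadjusted p under 0.05, 2 members were higher, and by DESeq2 4). The lower ones were Psme2b (24.1 to 30.2 against 33.2 to 38.3 CPM, -0.32 ± 0.08, adjusted p = 0.00567), Psme1 (78.4 to 90.6 against 94.6 to 113 CPM, -0.31 ± 0.09, adjusted p = 0.0284) and the core chaperone Psmg4 (3.98 to 5.50 against 6.00 to 8.28 CPM, -0.51 ± 0.15, adjusted p = 0.0249). The genotypes did not overlap for any of the 3, which held for 10 of the 46 tested members and 22.8% of all tested genes. The call of Psme1 ended when any of 6 single libraries was left out and that of Psmg4 when any of 4 was, and with the GC correction Psme2b kept its call while Psme1 (-0.17, adjusted p = 0.532) and Psmg4 (-0.37, adjusted p = 0.0778) did not.

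Without the 3 libraries, which are from later times, 5 members were higher and 6 lower at 0 h, where 12% of all genes were higher and 16.5% lower. The estimate for Psme1 was then the same with a smaller error (-0.31 ± 0.06, adjusted p = 0.000239). Psme2 passed as well (-0.36 ± 0.09, adjusted p = 0.00265), where with all libraries its adjusted p was 0.115. Of the inducible catalytic subunits, Psmb9 was lower at 0 h (-0.62 ± 0.13, adjusted p = 0.00197).

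At 1 h, 1 member was higher and 0 lower, where 3.44% of all genes were higher and 3.03% lower. It was the lid subunit Psmd8 (262 to 285 against 226 to 244 CPM, 0.20 ± 0.06, adjusted p = 0.0477), and leaving out any single library of these groups ended the call. Without the 3 libraries, which are from other times, Psmd8 and Psma4 were higher and 0 members lower, where 6.69% and 6.11% of all genes were. With the GC correction Psma4 was higher and Psmd8 was not called, where 5.18% of all genes were higher and 4.98% lower. Psme1 and Psme2 had estimates of 0.01 ± 0.09 and 0.02 ± 0.15 on the log2 scale.

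At 5 h, 6 members were lower in BMDM-Nur77-KO and 1 higher, where 10.6% of all genes were lower and 13.2% higher. The lower ones were Psme2 (-0.50 ± 0.15), Psma5 (-0.49 ± 0.10), Psma6 (-0.34 ± 0.06), Psmf1 (-0.34 ± 0.11), Psme2b (-0.27 ± 0.07) and Psmb7 (-0.19 ± 0.06), and the higher one was Psme3ip1 (0.58 ± 0.17). Without the 3 libraries, only Psma5 (-0.33 ± 0.11, adjusted p = 0.047) and Psma6 (-0.29 ± 0.06, adjusted p = 0.00144) of the members were called, where 6.46% of all genes were higher and 5.1% lower. With replicate 3 of BMDM-WT at 18 h left out as well, which enters through the shared estimate of the spread, Psme1 was also lower (-0.21 ± 0.07, adjusted p = 0.0458). With the GC correction and all libraries, 3 members were higher and 9 lower, where 15.6% and 13% of all genes were. Every member called above with all libraries was called in that fit too, along with others.

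Psma6 was at 249, 265, 280 and 272 CPM in BMDM-Nur77-KO against 319 to 360 CPM in BMDM-WT at 5 h, and Psma5 at 71.4, 78.0, 94.4 and 93.2 CPM against 116 to 124 CPM, so the genotypes did not overlap for either. This held for 6 of the 46 tested members and 18.7% of all tested genes. Psme3ip1 was at 91.5, 62.4, 38.6 and 44.2 CPM against 37.3 to 41.4 CPM, and its call ended without replicate 1 of BMDM-Nur77-KO (0.29, adjusted p = 0.163), as did that of Psme2 (-0.33, adjusted p = 0.075). Leaving out replicate 1 left 3 members lower and 0 higher, leaving out replicate 3 gave 14 and 4, and leaving out replicate 4 gave 13 and 3.

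At 18 h, 4 members were higher in BMDM-Nur77-KO and 1 lower, where 12.3% of all genes were higher and 9.44% lower. The higher ones were Psme2b (190 to 226 against 161 to 177 CPM, 0.31 ± 0.07, adjusted p = 0.0026), Psme1 (490 to 612 against 427 to 442 CPM, 0.27 ± 0.09, adjusted p = 0.0333), Psmd10 (63.5 to 73.3 against 52.1 to 59.3 CPM, 0.29 ± 0.09, adjusted p = 0.0191) and Psmd8 (307 to 348 against 263 to 297 CPM, 0.25 ± 0.06, adjusted p = 0.00345). Psmg1 was lower (2.31 to 3.66 against 4.11 to 5.86 CPM, -0.67 ± 0.15, adjusted p = 0.00156). The genotypes did not overlap for any of the 5, which held for 11 of the 46 tested members and 21.1% of all tested genes.

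Without the 3 libraries these 5 stayed called at 18 h, and Psme2 (0.33 ± 0.09, adjusted p = 0.00597), Psmb6 (0.28 ± 0.08) and Psma3 (0.19 ± 0.07) were higher and Psmc1 (-0.17 ± 0.06) and Psmd1 (-0.16 ± 0.06) lower as well. In that fit 7 members were higher and 3 lower, where 14.3% and 11.8% of all genes were. With replicate 3 of BMDM-WT at 18 h also left out, the 5 stayed called (Psme1 at 0.18 ± 0.06, adjusted p = 0.0298), as did Psme2, Psmb6, Psma3 and Psmc1, while Psmd1 missed the threshold (-0.11 ± 0.06, adjusted p = 0.141) and Psmd13 was lower (-0.25 ± 0.08, adjusted p = 0.0171). On library totals alone 0 were higher and 6 lower, on a scale that moved the median of all genes to -0.11. Leaving out replicate 4 of BMDM-Nur77-KO (0.19, adjusted p = 0.182) or any single library of BMDM-WT ended the call of Psme1. That of Psmd10 ended without replicate 4 of BMDM-Nur77-KO or replicate 1 of BMDM-WT, and with the GC correction (0.17, adjusted p = 0.142).

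**Figure D5:**
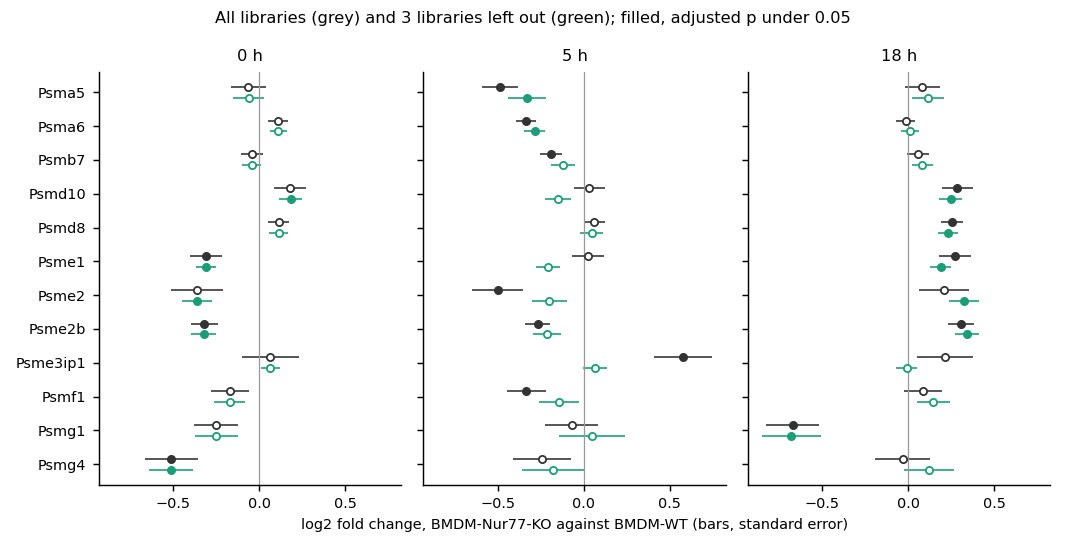
Log2 fold change of BMDM-Nur77-KO against BMDM-WT (x axis) at 0, 5 and 18 h for 12 members (y axis), with all libraries (grey) and with 3 libraries of BMDM-Nur77-KO left out (green). Points are estimates of edgeR's quasi-likelihood fit, bars are standard errors and filled points have an adjusted p under 0.05. Psme1 and Psme2b lie left of 0 at 0 h (-0.31 and -0.32) and right of 0 at 18 h (0.27 and 0.31), and Psme3ip1 at 5 h moves from 0.58 to 0.06.

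The change from 0 h was then compared between genotypes by an interaction term. At 18 h, 2 members were higher in this term and 0 lower, where 5.72% of all genes were higher and 3.73% lower (at an unadjusted p under 0.05, 3 members were lower, and by DESeq2 2). Compared with BMDM-WT, Psme2b rose by 0.63 ± 0.11 more in BMDM-Nur77-KO on the log2 scale (adjusted p = 0.000139) and Psme1 by 0.58 ± 0.13 more (adjusted p = 0.0032). Psme2 had an estimate of 0.57 ± 0.21 (adjusted p = 0.0883), and it passed without the 3 libraries (0.69 ± 0.12, adjusted p = 0.000158), without those and replicate 3 of BMDM-WT at 18 h (0.66 ± 0.13, adjusted p = 0.000319) and with the GC correction (0.55, adjusted p = 0.0107). With that correction Psme1 missed the threshold (0.57, adjusted p = 0.0676). Psmb9 passed (0.90 ± 0.18, adjusted p = 0.000876), while Psmb8 (0.52 ± 0.22, adjusted p = 0.146) and Psmb10 (0.68 ± 0.30, adjusted p = 0.183) did not.

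At 5 h the member called in this term was Psma6, which rose less in BMDM-Nur77-KO (-0.45 ± 0.08, adjusted p = 0.00113, where 1.33% of all genes were lower and 1.81% higher). It kept this call without the 3 libraries (-0.40 ± 0.08, adjusted p = 0.00205), with the GC correction (-0.46, adjusted p = 0.00391) and in each fit that left out 1 library. At 1 h edgeR's test called 0 members higher and 0 lower, with 0.0447% and 0.0179% of all genes. At an unadjusted p under 0.05 there were 3 and 2, and DESeq2 called 0 and 0.

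Among the 38 further genes of the pathway, the comparison of BMDM-Nur77-KO with BMDM-WT at 18 h called 5 higher and 1 lower, where 12.3% of all genes were higher and 9.44% lower. Ubd was at 3.02 to 4.62 CPM against 0.273 to 1.11 CPM in BMDM-WT, without overlap (2.44 ± 0.36, adjusted p = 5.48e-06). Nub1, a partner of Ubd, was higher (0.58 ± 0.06, adjusted p = 7.4e-09), as was Nfe2l1 (0.31 ± 0.06, adjusted p = 0.000397). Rps27a, which encodes ubiquitin fused to a ribosomal protein, was lower (-0.40 ± 0.10, adjusted p = 0.00465). Pomp had an estimate of 0.04 ± 0.08 (adjusted p = 0.743).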

How the data were processed

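RNA-seq was performed on 32 libraries of BMDMs (8 groups of genotype and time, 4 replicates each). Strand-specific paired-end libraries were aligned by the authors to mm10 with HISAT2 2.1.0 and filtered on mapping quality, and HOMER counted tags per RefSeq transcript. The deposited values are estimated counts, not normalized, in steps of 0.5. They were rounded to whole numbers, and 93 transcripts without a gene name (0.233 to 1.37% of the tags) were left out. Each gene was represented by its transcript of highest mean count (33 members had 1 transcript, 15 had more), which left 8742362 to 15780926 counts per library. The number of counts limits the precision of low members.

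All 32 libraries were fitted in 1 model of 8 group means with edgeR 4.0.16 (TMM, quasi-likelihood test, R 4.3.3), on the 11186 genes whose mean RPKM exceeded 1 in some group, with Benjamini-Hochberg adjustment and a threshold of 0.05. The fit was checked on simulated data. The alternatives were DESeq2's size factors or library totals, filterByExpr (12215 genes) or no filter (18060), summed transcripts, only the groups compared, the replicate block, DESeq2 1.42.0, a limit of 0.58 on the log2 fold change and each replicate left out. Leaving out 3 libraries, leaving out a library of BMDM-WT with them and the GC correction were added after seeing the data. Named genes were the 3 members with the largest called change in each comparison, the activators, catalytic subunits, deubiquitinase, inhibitor, assembly factors and untested members by role, and for the pathway the 3 largest changes, Pomp, Nfe2l1 and Ubd. Other members that the text names were chosen after their values were seen. The members and lists were chosen with earlier results of these data known. Promoters came from RefSeq (GRCm38.p6).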

Additional observations from a re-analysis of the deposited data

Results flagged for a closer look

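Of 192 values of a member or a sum of members in a group of 4 libraries, 13 had 1 library far from the other 3, where chance gives about 1 in 20. In BMDM-Nur77-KO these were Psme1 in replicate 4 at 18 h (612 CPM), Psmb6 in replicate 1 at 5 h (87.8 CPM), Psme2b in replicate 2 at 0 h (24.1 CPM) and Psmg3 in replicate 1 at 1 h (3.61 CPM). In BMDM-WT, replicate 3 at 18 h stood apart for Psme4 (319 CPM), Psmd14 (106 CPM), Psme3 (93.7 CPM) and the sum of all members (5577 CPM). The others in BMDM-WT were Psma5 in replicate 2 at 0 h (43.7 CPM) and in replicate 1 at 5 h (124 CPM), Psmg1 in replicate 1 at 5 h (5.52 CPM), Psme3 in replicate 1 at 1 h (104 CPM) and Psme2b in replicate 4 at 1 h (29.9 CPM).

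The response to LPS differed between genotypes for 3 members by the interaction term of edgeR's quasi-likelihood test. On the log2 scale Psma6 differed by -0.45 at 5 h (adjusted p = 0.00113), and Psme1 by 0.58 (adjusted p = 0.0032) and Psme2b by 0.63 (adjusted p = 0.000139) at 18 h.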

How the results depend on the processing

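The 30 counts of members higher or lower were recomputed under each alternative, and those below lay more than 1.5 times from the reported count. The cause was not tested. With library totals alone there were 0 higher and 14 lower in BMDM-WT at 1 h, 8 higher and 28 lower in BMDM-WT at 5 h, 16 higher in BMDM-WT at 18 h, 34 higher and 2 lower in BMDM-WT from 5 to 18 h, 3 lower at 1 h in BMDM-Nur77-KO, 7 higher and 31 lower at 5 h in BMDM-Nur77-KO, 16 higher and 12 lower at 18 h in BMDM-Nur77-KO, 5 lower in BMDM-Nur77-KO from 5 to 18 h, 1 higher for the genotypes at 0 h, 2 higher for the genotypes at 5 h, 0 higher and 6 lower for the genotypes at 18 h and 2 lower for the interaction at 18 h. With no filter on low counts there were 0 higher in BMDM-WT at 1 h and 0 higher for the genotypes at 1 h. With only the libraries of the groups compared there were 4 higher and 4 lower in BMDM-WT at 1 h, 33 higher in BMDM-WT at 5 h, 1 higher at 1 h in BMDM-Nur77-KO, 2 lower at 5 h in BMDM-Nur77-KO, 5 lower in BMDM-Nur77-KO from 5 to 18 h, 3 higher for the genotypes at 0 h, 2 higher and 1 lower for the genotypes at 1 h, 0 higher and 1 lower for the genotypes at 5 h, 1 higher for the genotypes at 18 h and 1 lower for the interaction at 1 h. Without the 3 libraries there were 5 higher and 6 lower in BMDM-WT at 1 h, 3 higher and 1 lower at 1 h in BMDM-Nur77-KO, 5 higher and 6 lower for the genotypes at 0 h, 2 higher for the genotypes at 1 h, 0 higher and 2 lower for the genotypes at 5 h, 7 higher and 3 lower for the genotypes at 18 h, 1 higher for the interaction at 1 h, 3 lower for the interaction at 5 h and 5 higher and 4 lower for the interaction at 18 h. With replicate 3 of BMDM-WT at 18 h left out as well there were 6 higher and 8 lower in BMDM-WT at 1 h, 3 higher and 1 lower at 1 h in BMDM-Nur77-KO, 5 higher and 6 lower for the genotypes at 0 h, 2 higher for the genotypes at 1 h, 0 higher and 3 lower for the genotypes at 5 h, 7 higher and 3 lower for the genotypes at 18 h, 5 higher and 1 lower for the interaction at 1 h, 4 lower for the interaction at 5 h and 5 higher and 1 lower for the interaction at 18 h. With the GC correction there were 1 higher in BMDM-WT at 1 h, 10 lower in BMDM-WT from 5 to 18 h, 2 higher at 1 h in BMDM-Nur77-KO, 1 higher and 1 lower for the genotypes at 0 h, 3 higher for the genotypes at 5 h, 2 lower for the genotypes at 18 h and 2 lower for the interaction at 5 h. With an added limit of 0.58 on the log2 fold change there were 0 higher and 1 lower in BMDM-WT at 1 h, 13 higher and 2 lower in BMDM-WT at 5 h, 17 higher and 2 lower in BMDM-WT at 18 h, 4 higher and 2 lower in BMDM-WT from 5 to 18 h, 11 higher and 3 lower at 5 h in BMDM-Nur77-KO, 19 higher and 2 lower at 18 h in BMDM-Nur77-KO, 10 higher and 2 lower in BMDM-Nur77-KO from 5 to 18 h, 0 lower for the genotypes at 0 h, 0 higher for the genotypes at 1 h, 0 higher and 0 lower for the genotypes at 5 h, 0 higher for the genotypes at 18 h and 0 lower for the interaction at 5 h. With all transcripts of a gene summed there were 1 lower at 1 h in BMDM-Nur77-KO. By DESeq2's Wald test there were 1 lower at 1 h in BMDM-Nur77-KO, 4 higher for the genotypes at 0 h, 2 higher for the genotypes at 5 h, 2 lower for the genotypes at 18 h and 2 lower for the interaction at 18 h. With DESeq2's size factors in edgeR there were 2 lower at 5 h in BMDM-Nur77-KO, 1 higher for the genotypes at 0 h, 0 higher for the genotypes at 1 h and 2 higher for the genotypes at 5 h. With filterByExpr there were 0 higher for the genotypes at 1 h. With the replicate number as a block, 1 member was lower at 1 h in BMDM-Nur77-KO and 0 higher between the genotypes at 1 h, and the other 28 counts stayed within 1.5 times. Pairing of the samples by these numbers was not shown, since in none of the 12 comparisons did all 4 correlations of same-numbered libraries exceed 0.1 (range -0.79 to 0.56). It is not excluded, as single pairs reached up to 0.56.

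Leaving out 1 library at a time gave 1 to 3 higher and 1 to 3 lower in BMDM-WT at 1 h, 20 to 24 higher and 4 to 6 lower in BMDM-WT at 5 h, 29 to 31 higher and 5 to 7 lower in BMDM-WT at 18 h, 15 to 17 higher and 4 to 6 lower in BMDM-WT from 5 to 18 h, 0 higher and 0 to 1 lower at 1 h in BMDM-Nur77-KO, 22 to 24 higher and 4 to 6 lower at 5 h in BMDM-Nur77-KO, 30 to 33 higher and 5 to 6 lower at 18 h in BMDM-Nur77-KO, 22 to 27 higher and 7 to 9 lower in BMDM-Nur77-KO from 5 to 18 h, 0 higher and 1 to 3 lower for the genotypes at 0 h, 0 higher and 0 lower for the genotypes at 1 h, 0 to 4 higher and 3 to 14 lower for the genotypes at 5 h, 2 to 4 higher and 1 to 2 lower for the genotypes at 18 h, 0 higher and 0 lower for the interaction at 1 h, 0 higher and 1 lower for the interaction at 5 h and 2 to 4 higher and 0 lower for the interaction at 18 h. The calls between genotypes at 5 h depended most on single libraries of BMDM-Nur77-KO at 5 h (3 members lower without replicate 1, 14 without replicate 3 and 13 without replicate 4). At 0 h, 1 member was lower without replicate 1 or 3 of BMDM-Nur77-KO or replicate 2 of BMDM-WT, and at 18 h 2 were higher without replicate 4 of BMDM-Nur77-KO or replicate 1 of BMDM-WT.

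On library totals alone the sign of 10 named values turned: Psmb7 (-0.089), Psmd14 (-0.063) and Pomp (-0.26) in BMDM-WT at 5 h, Psmd14 (-0.13) and Psmf1 (-0.11) in BMDM-WT at 18 h and Psmb6 (-0.044), Psmb7 (-0.23), Psmd14 (-0.17), Psme3 (-0.48) and Psme4 (-0.16) at 5 h in BMDM-Nur77-KO. Of 1045 values of named genes under the alternatives, 980 kept their direction and side of the threshold and 55 lost the call, and of 784 that left out 1 library 722 and 62 did. Members with few counts, such as Psma8, Psmb11 and the Psmg genes, are limited by depth.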
